A study of Mus musculus with 10 samples.

Results

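The genes described here encode anchors of the muscle Z-disc: telethonin (Tcap), the muscle LIM protein (Csrp3), the 3 myozenins (Myoz1, Myoz2 and Myoz3) and 4 members of the PDZ-LIM family (Ldb3, Pdlim3, Pdlim5 and Pdlim7). They were taken by symbol from the count files, which list 23337 genes, and all 9 were found. The data are bulk RNA-Seq of polyA RNA from 10 libraries, each of 1 mouse and 1 tissue, left ventricle (LV) or skeletal muscle (SkM), from 2 WT and 3 E0del/+ mice. E0del/+ mice carry 1 allele without E0, a conserved sequence in the first intron of Ttn, which encodes titin. The mice had a hybrid background, with C57BL/6 E0del/+ and 129SvEv WT as parental strains, and the labels give no age, no sex and no name of the skeletal muscle. An age of 17 weeks comes from a legend of the study on bulk RNA-Seq of LV, which does not name these mice. Every mouse gave both tissues, so LV and SkM could be compared within mice. Total counts per library were between 11010021 and 17484873. Levels are given as CPM, counts scaled to a library total of 1000000, and where genes are compared with each other as CPM per kb of summed exon length.

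The Z-disc is the plate at which the thin filaments of neighbouring sarcomeres meet and into which titin is anchored. Telethonin ties the ends of titin molecules together there, and the muscle LIM protein binds telethonin and alpha-actinin. Myozenins, also called calsarcins or FATZ proteins, bind alpha-actinin, filamin C and telethonin and hold the phosphatase calcineurin at the Z-disc, and PDZ-LIM proteins bind alpha-actinin through their PDZ domain. Myoz2 is known as the myozenin of heart and slow fibres, and Myoz1 and Myoz3 as those of fast fibres.

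Markers of each tissue were checked first. The 9 fast skeletal fibre markers, of which Myh4 was the most abundant, summed to between 149419 and 159736 CPM in the 5 SkM libraries and to 171, 158 and 156 CPM in E0del/+ LV replicates 1, 2 and 3 and 149 CPM in WT LV replicate 1. In WT LV replicate 2 they summed to 37133 CPM. The 9 ventricle markers, with Myh6 on top in LV, summed to between 89680 and 103249 CPM in those 4 LV libraries and to 70755 CPM in WT LV replicate 2. WT LV replicate 2 therefore carried skeletal muscle transcripts that the other LV libraries did not carry at this level, and it is kept apart. The members' differences are given without and with it, and their order, spread and nearest genes without it. In SkM the ventricle markers summed to 1513, 1619 and 225 CPM in E0del/+ replicates 1, 2 and 3 and to 2303 and 247 CPM in WT replicates 1 and 2, with Actc1 the most abundant. Xist was at 364, 278 and 0.42 CPM in the E0del/+ SkM libraries and at 397 and 0.34 CPM in the WT SkM libraries. WT replicate 2 and E0del/+ replicate 3 lacked Xist at the level of the others, so the sexes were split unevenly over the genotypes. WT SkM replicate 1 held Xist and also Y-linked transcripts, with Ddx3y at 12.5 CPM, against 0.37 and 0.33 CPM in E0del/+ SkM replicates 1 and 2, 0.38 CPM in LV of the same mouse and 94.1 and 108 CPM in the SkM libraries without Xist. It thus stands apart as well, and the main results are also given without WT replicate 1 where that can be fitted.

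The members in WT LV replicate 2 moved with those markers. The mean of the other LV libraries was taken off both its level and the mean SkM level. Myoz1 in it then stood at 27.2% of the SkM level, Myoz3 at 29.3%, Pdlim7 at 22.8% and Pdlim3 at 18.6%. The median for the 9 fast fibre markers was 23.0% (16.3 to 24.7). The members that were more abundant in LV were lower in it than in the other LV libraries, with Csrp3 at 57.4% and Myoz2 at 59.0% of their mean, beside a median of 70.0% (59.5 to 82.5) for the ventricle markers. Tcap was at 72.8%, Pdlim5 at 76.4% and Ldb3 at 96.8% of their means in the other LV libraries. In the other 4 LV libraries the fast fibre markers were at a median of 0.109% (0.0974 to 0.185) of their SkM levels, and Myoz1 was at 0.0999% and Myoz3 at 0.0799%. A trace of Myoz1 and Myoz3 in LV was thus of the same order as that of the fast fibre markers, and the part of carried-over SkM transcripts in it was not tested.

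Comparing SkM with LV within mice shows how the anchors are shared out between the muscles. Myoz1, Myoz3, Pdlim3 and Pdlim7 were the genes of SkM, Csrp3 and Myoz2 those of LV, and Tcap, Ldb3 and Pdlim5 were abundant in both. By edgeR with mouse as a block over the 4 mice without WT replicate 2, a gene was called at an adjusted p under 0.05. Of 13375 genes tested, 3991 (29.8%) were called higher in SkM and 4211 (31.5%) lower. Of the 9 members, all of which passed the filter on low counts, 5 were called higher and 2 lower, and the same 7 were called in the same directions without WT replicate 1 and with both libraries of WT replicate 2. With a fold change of at least 2 also required (an absolute log2 of at least 1), 1862 genes (13.9%) were higher and 2729 (20.4%) lower, with 4 members higher and 2 lower. Myoz3 passed the filter through its SkM counts, since it was removed when LV was filtered alone, so it had to differ, and neither the count nor the median of the members is support for a direction. The median log2 difference was 0.97 over the members and -0.02 over all genes tested. Under total counts with no TMM scaling the median over all genes moved to -0.67 and the share of calls that were higher in SkM moved from 48.7% to 18.1%, so differences near 0 depend on the scaling. In bulk tissue, fewer cells of a type and less RNA per cell cannot be told apart. The p-values measure the spread between these few mice.

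**Figure D1:**
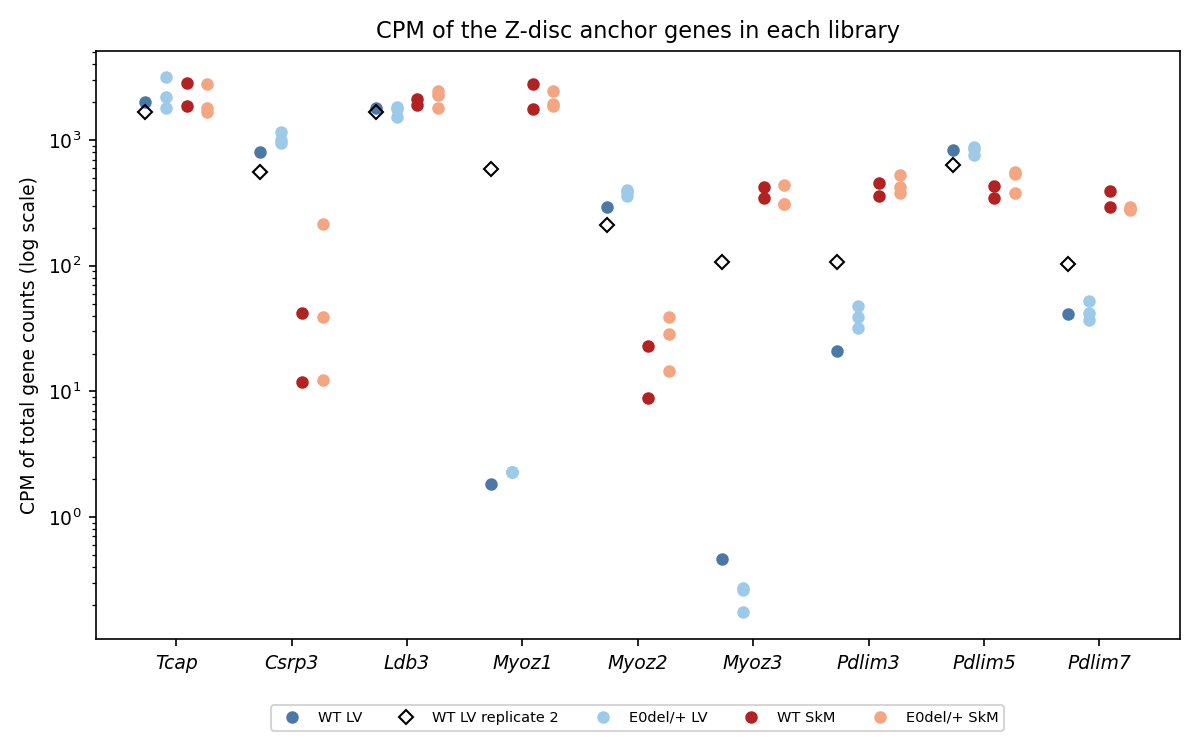
CPM of the 9 genes on a log axis, 1 point for each library, by genotype and tissue, with WT LV replicate 2 as an open diamond. Myoz1 and Myoz3 lie lowest in the other 4 LV libraries, and the SkM points of Csrp3 and Myoz2 are the most widely spread.

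The 250 bases before the annotated start of transcription are printed for Myoz2 and Csrp3, the members called lower in SkM, for Pdlim3, called higher, and for Ldb3, abundant in both muscles. They were read from RefSeq promoters of GRCm38.p6, in which 6 of the 9 members had an entry (Tcap, Myoz1 and Myoz3 had none). Capitals mark matches on either strand to 6 motifs, the E-box CANNTG of basic helix-loop-helix factors, the TATA box as TATAAA, the M-CAT sequence CATTCC known from TEAD factors, the letters GATAAG known from GATA factors, the MEF2 motif and the CArG box of serum response factor. The runs are Myoz2 (chr3:123034988-123035237, minus strand), Csrp3 (chr7:48848052-48848301, minus strand, the upstream of its annotated starts), Pdlim3 (chr8:45885237-45885486, plus strand) and Ldb3 (chr14:34588682-34588931, minus strand), each 5′ to 3′.
Myoz2: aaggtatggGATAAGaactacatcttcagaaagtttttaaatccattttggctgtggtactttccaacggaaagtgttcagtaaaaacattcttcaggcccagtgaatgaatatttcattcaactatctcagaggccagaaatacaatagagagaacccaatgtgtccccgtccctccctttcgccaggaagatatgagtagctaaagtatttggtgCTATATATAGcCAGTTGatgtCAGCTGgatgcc
Csrp3: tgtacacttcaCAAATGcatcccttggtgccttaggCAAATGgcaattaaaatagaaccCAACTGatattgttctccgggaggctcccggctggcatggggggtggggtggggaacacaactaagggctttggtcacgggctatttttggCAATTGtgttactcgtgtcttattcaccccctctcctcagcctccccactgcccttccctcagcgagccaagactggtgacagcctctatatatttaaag
Pdlim3: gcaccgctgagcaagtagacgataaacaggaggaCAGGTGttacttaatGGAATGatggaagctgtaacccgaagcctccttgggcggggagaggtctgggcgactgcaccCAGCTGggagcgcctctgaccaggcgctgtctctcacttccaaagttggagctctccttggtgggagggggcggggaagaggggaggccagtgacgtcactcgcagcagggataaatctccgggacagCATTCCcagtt
Ldb3: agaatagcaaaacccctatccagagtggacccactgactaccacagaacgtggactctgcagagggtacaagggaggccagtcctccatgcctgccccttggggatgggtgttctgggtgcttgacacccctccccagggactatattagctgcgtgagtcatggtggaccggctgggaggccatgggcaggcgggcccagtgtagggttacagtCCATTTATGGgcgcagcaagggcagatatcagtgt
Counted from the start, Myoz2 held a MEF2 match at -33, E-boxes at -22 and -12 and GATAAG at -241. Csrp3 held 4 E-boxes, at -239, -214, -191 and -100, and no other match. Pdlim3 held M-CAT matches at -201 and -11 and E-boxes at -216 and -139, and Ldb3 held a CArG box at -35 and no E-box. Counted from another annotated start of Ldb3, with its run at chr14:34588608-34588857, the CArG box lay at -109. No match overlapped another. Among the entries not printed, Pdlim7, also called higher in SkM, held no match to any of the 6 motifs. For Pdlim5 a run held an E-box at -162 and another TATAAA at -78. A further run of Csrp3 held 4 E-boxes. Of 27025 promoters of the same length, 66.0% held an E-box, 13.0% TATAAA, 12.6% the M-CAT sequence, 6.60% GATAAG, 1.73% the MEF2 motif and 1.40% a CArG box. Of the printed bases, 28 of the Myoz2 run, 26 of the Pdlim3 run and 1 of the Ldb3 run lie in GENCODE exons. A match is a description of letters and says nothing of binding.

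Tcap (chr11:98383811-98384953 in mm10, 2 exons), the titin cap, was at 2193, 3150 and 1800 CPM in LV of E0del/+ replicates 1, 2 and 3, at 1996 CPM in WT LV replicate 1 and at 1664 CPM in WT LV replicate 2. SkM held 1688, 1805 and 2786 CPM in E0del/+ replicates 1, 2 and 3 and 1875 and 2871 CPM in WT replicates 1 and 2. The ranges of the tissues overlapped, and the highest SkM levels were in the same mice that lacked Xist. On the TMM scale Tcap in SkM exceeded LV in each of the 4 mice, by a log2 of 0.12 to 1.24, and the fitted difference was 0.49 (SE 0.23, adjusted p = 0.101). DESeq2's Wald test called it (0.50, adjusted p = 0.0286), and under total counts the sign turned (-0.16), so its direction depended on the scaling. In WT replicate 2 the difference was 1.51, the widest of the 5 mice, and with that mouse the fit gave 0.69 (adjusted p = 0.0621).

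Csrp3 (chr7:48830398-48848051, 7 exons), which shuttles between the Z-disc and the nucleus, was at 953, 1155 and 1001 CPM in LV of the E0del/+ mice and at 804 CPM in WT LV replicate 1, with 561 CPM in WT LV replicate 2. In SkM it was at 38.9, 214 and 12.4 CPM in E0del/+ replicates 1, 2 and 3 and at 42.0 and 11.8 CPM in WT replicates 1 and 2. No SkM library reached any LV library, and E0del/+ replicate 2 stood above the other SkM libraries. Csrp3 was lower in SkM in 4 of 4 mice, with log2 differences of -4.05, -1.51 and -5.73 in E0del/+ replicates 1, 2 and 3 and -3.75 in WT replicate 1, and the fit gave -3.76 (SE 0.65, adjusted p = 0.00165). Without E0del/+ replicate 2 it was -4.46 and without E0del/+ replicate 3 -3.12, and in WT replicate 2, with the mixed LV library, the difference was -4.85 (fit with that mouse -4.02).

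Myoz2 (chr3:123006206-123034987, 6 exons) was at 356, 401 and 383 CPM in LV of the E0del/+ mice, at 295 CPM in WT LV replicate 1 and at 212 CPM in WT LV replicate 2. Its SkM levels were 28.4, 39.4 and 14.4 CPM in the E0del/+ mice and 23.0 and 8.92 CPM in the WT mice. Every SkM library lay under every LV library, and both SkM libraries without Xist were under the other 3. The fitted log2 difference was -3.19 (SE 0.27, adjusted p = 4.52e-05), and it was between -4.13 and -2.42 in the 4 mice and -3.85 in WT replicate 2 (fit with that mouse -3.32).

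Myoz1 (chr14:20649102-20656540, 6 exons) was at 2.28, 2.27 and 2.27 CPM in LV of the E0del/+ mice and at 1.84 CPM in WT LV replicate 1, which stand for 24 to 35 counts, and at 590 CPM in WT LV replicate 2. In SkM it was at 1874, 1945 and 2441 CPM in the E0del/+ mice and at 1782 and 2791 CPM in the WT mice. Its fitted difference was a log2 of 10.49 (SE 0.24, adjusted p = 2.48e-07), higher in SkM in 4 of 4 mice, and over pooled counts the SkM level was 927 times the LV level (95% Poisson interval 770 to 1128). In WT replicate 2 the difference was 2.96, the smallest of the 5 mice, and with that mouse in the fit it was 9.63. Intervals from counts cover counting error alone, since reads without molecular identifiers are not independent molecules.

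Myoz3 (chr18:60573717-60591716, 7 exons) had 4, 3 and 2 counts in LV of the E0del/+ mice and 6 in WT LV replicate 1, or 0.26, 0.27, 0.17 and 0.46 CPM, and 107 CPM in WT LV replicate 2. In SkM it was at 308 CPM in E0del/+ replicates 1 and 2, 441 CPM in E0del/+ replicate 3 and 346 and 425 CPM in WT replicates 1 and 2. Pooled over 4 LV libraries, 15 counts gave 0.295 CPM (95% Poisson interval 0.165 to 0.486), and the pooled SkM level was 1183 times as high (717 to 2114). As a description, with no test because the gene passed the filter through SkM alone, the fit gave a log2 of 10.79 (SE 0.27), against 2.71 in WT replicate 2, and 8.97 with that mouse included.

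Among the PDZ-LIM genes, Ldb3 (chr14:34526699-34588681, 17 exons), whose product is also called ZASP or Cypher, was at 1774, 1527 and 1823 CPM in LV of the E0del/+ mice, at 1793 CPM in WT LV replicate 1 and at 1674 CPM in WT LV replicate 2. Levels in SkM were 2264, 2445 and 1802 CPM in the E0del/+ mice and 2128 and 1889 CPM in the WT mice. The tissues overlapped in CPM, through E0del/+ SkM replicate 3. On the TMM scale Ldb3 was above its LV level in 4 of 4 mice, with differences of 0.59 to 1.60, and was called (0.97, SE 0.21, adjusted p = 0.0059), whereas under total counts it was not (0.32, adjusted p = 0.0760). In WT replicate 2 the difference was 0.90 (fit with that mouse 0.95).

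Pdlim3 (chr8:45885485-45919546, 7 exons), the alpha-actinin-associated LIM protein, was at 32.2, 39.3 and 47.5 CPM in LV of the E0del/+ mice, at 21.05 CPM in WT LV replicate 1 and at 108 CPM in WT LV replicate 2. In SkM it was at 423, 529 and 376 CPM in the E0del/+ mice and at 359 and 453 CPM in the WT mice. The groups were apart, also with WT LV replicate 2, and the fitted difference was 4.29 (SE 0.22, adjusted p = 5.13e-06), with 3.59 to 4.68 in the 4 mice and 2.79 in WT replicate 2 (fit with that mouse 3.99).

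Pdlim7 (chr13:55497487-55513439, 15 exons), or Enigma, was at 37.3, 52.9 and 42.0 CPM in LV of the E0del/+ mice, at 41.2 CPM in WT LV replicate 1 and at 104 CPM in WT LV replicate 2. The SkM libraries had 285, 291 and 279 CPM in the E0del/+ mice and 295 and 394 CPM in the WT mice. On the TMM scale its difference was between 3.34 and 3.49 in the 4 mice, and in plain CPM between 2.46 and 2.93 (TMM fit 3.39, SE 0.12, adjusted p = 1.06e-06), and it was 2.65 in WT replicate 2 (fit with that mouse 3.24).

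Pdlim5 (chr3:142239585-142395696, 20 exons), or ENH, was at 848, 758 and 875 CPM in LV of the E0del/+ mice, at 834 CPM in WT LV replicate 1 and at 633 CPM in WT LV replicate 2. In SkM it was at 541, 560 and 377 CPM in the E0del/+ mice and at 346 and 428 CPM in the WT mice. In CPM every SkM library was under every LV library, but on the TMM scale the mice differed in sign, with -0.09, 0.49 and -0.61 in E0del/+ replicates 1, 2 and 3 and -0.76 in WT replicate 1. The fitted difference was -0.24 (SE 0.23, adjusted p = 0.383). It was called lower in SkM without E0del/+ replicate 2 (-0.48, adjusted p = 0.0329) and under total counts (-0.89, adjusted p = 0.00277). WT replicate 2 had a difference of 0.16 (fit with that mouse -0.16, adjusted p = 0.536).

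**Figure D2:**
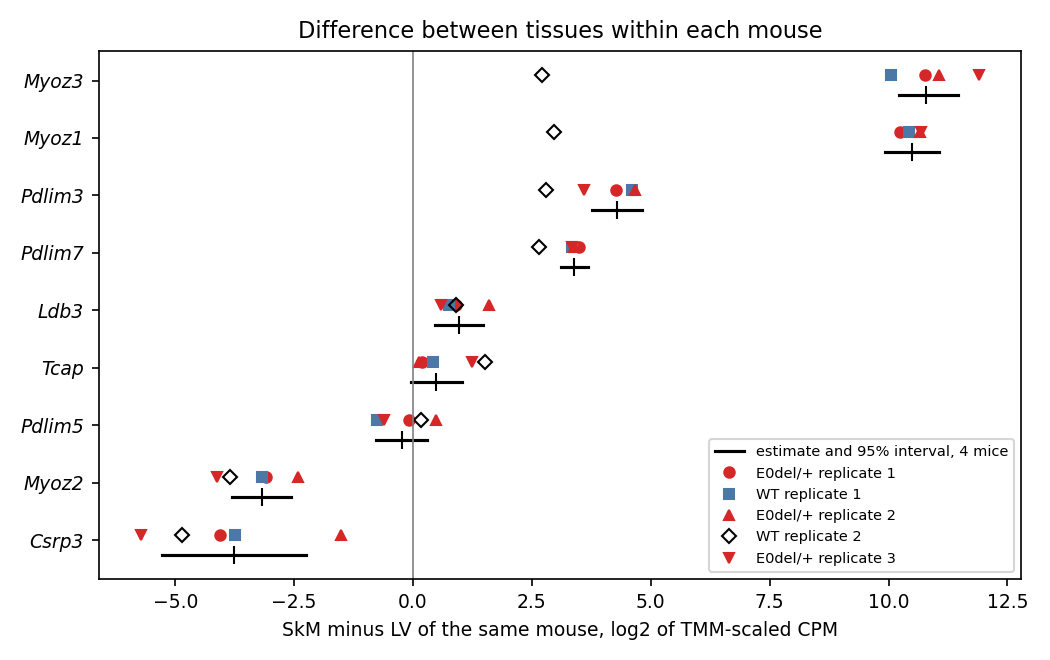
SkM minus LV of the same mouse in log2 of TMM-scaled CPM for the 9 genes, 1 marker for each mouse, with the edgeR estimate and its 95% interval over 4 mice as a bar and WT replicate 2 as an open diamond. Pdlim7 is nearly the same in the 4 mice, Csrp3 is spread from -5.73 to -1.51, and for Myoz1, Myoz3, Pdlim3 and Pdlim7 the mouse with the mixed LV library lies nearer 0 than the others.

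Ordered by mean CPM per kb in the 4 LV libraries, the members were Tcap (2410), Csrp3 (1005), Myoz2 (311), Ldb3 (288), Pdlim5 (122), Pdlim3 (22.2), Pdlim7 (14.5), Myoz1 (1.67) and Myoz3 (0.086). The ranges of Myoz2 and Ldb3 overlapped, and so did those of Pdlim3 and Pdlim7, with the first of each pair above the second in 3 of 4 libraries. Per kb, Tcap ranked 12th and Csrp3 35th of the 23337 genes in LV. In the 5 SkM libraries the order by CPM per kb was Tcap (2326), Myoz1 (1674), Ldb3 (350), Pdlim3 (271), Myoz3 (108), Pdlim7 (103), Pdlim5 (66.1), Csrp3 (65.6) and Myoz2 (19.8). Ranges overlapped between Tcap and Myoz1 and between Ldb3 and Pdlim3, although the first was above the second in 5 of 5 libraries. Myoz3 was above Pdlim7 in 2 of 5 libraries, Pdlim5 above Csrp3 in 4 of 5 and Csrp3 above Myoz2 in 5 of 5, each with overlapping ranges. Tcap ranked 17th and Myoz1 24th per kb among all genes in SkM. With no length correction, where longer genes gain, the order by mean CPM in LV put Ldb3 at rank 2, Csrp3 at 3, Pdlim5 at 4 and Myoz2 at 5, and in SkM Tcap was above Myoz1 in 3 of 5 libraries. Tcap was thus at the top of the members per kb in both muscles, and the places below it were filled by different genes.

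The choice among paralogs was sharpest for the myozenins. Gene counts do not separate splice forms, so the choice of isoform is described as the share of each gene in its family, in CPM per kb. In LV of the 4 mice Myoz2 made up 99.4% ± 0.0395 (SD, n = 4) of the myozenin sum, Myoz1 0.536% ± 0.0292 and Myoz3 0.0289% ± 0.0164. In SkM of the same mice Myoz1 made up 92.5% ± 0.473, Myoz3 6.14% ± 0.557 and Myoz2 1.41% ± 0.615. With no length correction the share of Myoz3, the longest of the 3, was 14.7% in SkM and 0.0851% in LV, and that of Myoz1 in SkM 84.2%. The shares of Myoz1 and Myoz2 differed in the same direction in 4 of 4 mice, and for each an exact permutation of signs within mice gave a two-sided p of 0.13, the smallest that 4 mice allow. The shares add up to a whole and are not independent of each other, and that of Myoz3, with 15 counts in LV, is a description with no test. SkM of WT replicate 2 had 94.2% Myoz1, 5.46% Myoz3 and 0.338% Myoz2. In WT LV replicate 2 the shares per kb were 67.9% for Myoz1, 27.4% for Myoz2 and 4.71% for Myoz3, and its shares of raw myozenin counts were 64.9% (95% Wilson interval 64.0 to 65.8), 23.3% (22.5 to 24.1) and 11.8% (11.2 to 12.5). The family sum was also larger in SkM, at 1499 to 2289 CPM per kb in the 5 SkM libraries against 257 to 350 CPM per kb in the 4 LV libraries and 672 in WT LV replicate 2.

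**Figure D3:**
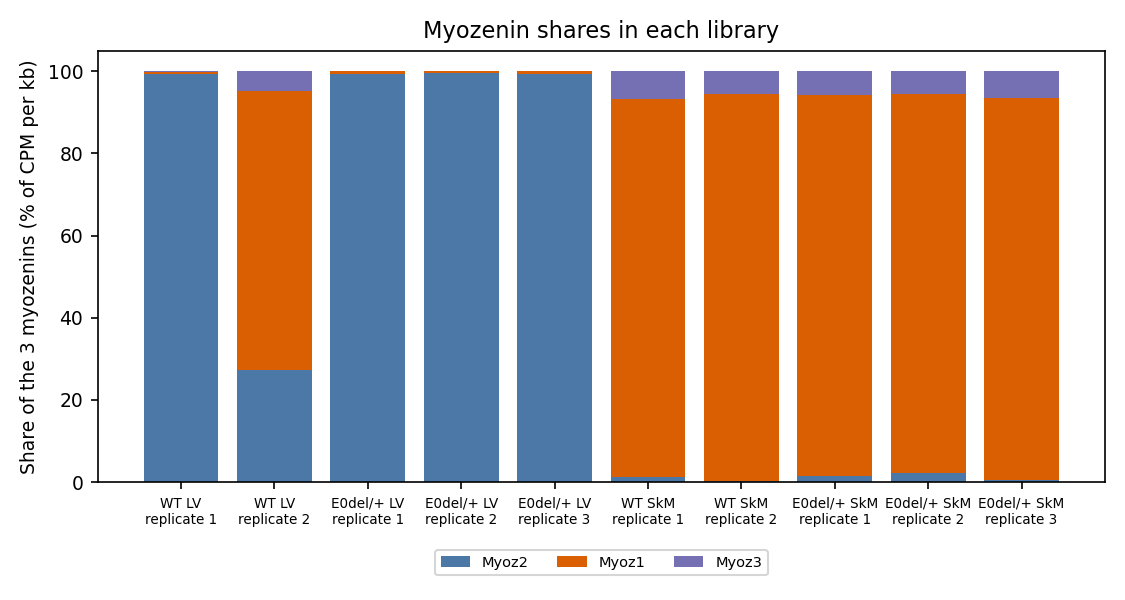
Share of Myoz1, Myoz2 and Myoz3 in the summed CPM per kb of the 3 myozenins, 1 stacked bar for each library. Myoz2 fills the bars of 4 LV libraries and Myoz1 most of the 5 SkM bars, and WT LV replicate 2 holds 67.9% Myoz1.

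The PDZ-LIM family, fixed as a list of 7 genes, was more mixed. Per kb, Ldb3 held 57.3% ± 2.65 (SD, n = 4) of the family sum in LV and 44.4% ± 1.84 in SkM, Pdlim5 24.2% ± 0.539 and 8.20% ± 1.19, and Pdlim3 4.42% ± 1.36 and 32.9% ± 2.37. Pdlim7 held 2.91% ± 0.565 in LV and 12.0% ± 1.43 in SkM. Pdlim1 held 8.32% in LV and 1.89% in SkM, Pdlim4 1.64% and 0.415%, and Pdlim2 1.16% and 0.122%. With WT replicate 2, the LV and SkM means per kb were 56.6% and 43.3% for Ldb3, 23.0% and 8.12% for Pdlim5, 6.20% and 33.5% for Pdlim3 and 3.68% and 12.9% for Pdlim7. Without it, each share differed in 1 direction in 4 of 4 mice (exact permutation of signs, p = 0.13 for each, the smallest possible). The direction for Ldb3 depended on the correction for length, since its share of CPM with no such correction differed by 0.854 percentage points and went up in 2 of 4 mice (exact p = 0.5). Per kb, Pdlim3 came next after Ldb3 in SkM and Pdlim5 did in LV, but with no length correction Pdlim5 was also second in SkM, at 13.5% against 12.6% for Pdlim3. The family sum was 473 to 530 CPM per kb in the 4 LV libraries, 515 in WT LV replicate 2 and 699 to 945 in the 5 SkM libraries.

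Spread between mice was uneven across the members. Csrp3 had a coefficient of variation of 133% over the 5 SkM libraries, with the highest 18.1 times the lowest, at percentile 99.9 of 7383 genes, whose median was 12.6%. That width rested largely on E0del/+ replicate 2, at 214 CPM, since Csrp3 was between 11.8 and 42.0 CPM in the other SkM libraries. Myoz2 followed with 52.2% (4.41 times, percentile 96.9). Both are genes of slow fibres as well as of heart, and the 6 slow fibre markers varied with them. Their sum in SkM was 2161, 2696 and 364 CPM in E0del/+ replicates 1, 2 and 3 and 1489 and 179 CPM in WT replicates 1 and 2, with Myh7 the most abundant in 4 of 5 libraries, Atp2a2 in WT SkM replicate 2, and none at 0. WT replicate 2 and E0del/+ replicate 3 were thus the lowest for the slow fibre sum, for the ventricle sum, for Csrp3 and for Myoz2. The other members had coefficients of 12.6% to 26.0% in SkM. In LV without WT replicate 2, Pdlim3 (32.1%, percentile 96.2 of 9112 genes) and Tcap (26.2%) were the widest and Pdlim5 (6.06%) the narrowest of the 7 members that could be ranked. What part fibre composition had in the spread was not tested.

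**Figure D4:**
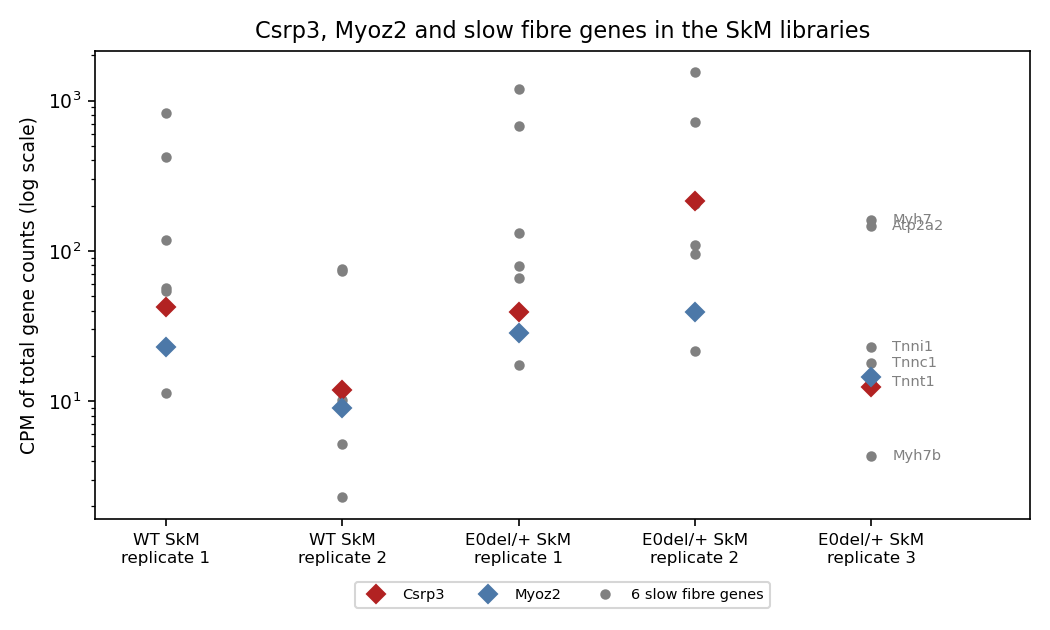
CPM on a log axis of Csrp3, Myoz2 and the 6 slow fibre markers in the 5 SkM libraries, 1 point for each gene and library. WT replicate 2 and E0del/+ replicate 3 lie lowest, and Csrp3 reaches 214 CPM in E0del/+ replicate 2.

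Genes with profiles nearest to a member over the 9 libraries without WT LV replicate 2 were ranked by the root mean square difference of centred log2 CPM among 8612 genes. Tnnt3, the fast troponin T, was nearest to Myoz1 (0.0784), and Tnnc1, the troponin C of heart and slow fibres, to Csrp3 (0.566). The nearest genes to the other myozenins were Gstm7 for Myoz2 (0.205) and Cacng1, a subunit of the skeletal muscle calcium channel, for Myoz3 (0.298). For the remaining members they were Ap4s1 for Tcap (0.112), Asrgl1 for Ldb3 (0.0609), Sema6c for Pdlim3 (0.240), Arvcf for Pdlim5 (0.138) and Sepw1 for Pdlim7 (0.0641). With TMM-scaled values the nearest gene was the same for 9 of 9 members. Csrp3 had the least close neighbour of the 9.

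Relatives and partners of the members were described from fixed lists by their calls and medians. Over all genes tested, 29.8% were called higher in SkM and 31.5% lower, with a median of -0.02, and under total counts 18.1% of the calls were higher, with a median of -0.67. Of the 7 PDZ-LIM genes 3 were called higher in SkM (Pdlim3, Pdlim7 and Ldb3) and 2 lower, Pdlim2 (-1.93, adjusted p = 0.0129) and Pdlim1 (-0.85, adjusted p = 0.0186), with a median of -0.24. The 5 LIM-only relatives of Csrp3 split into Fhl3 (4.60) and Fhl1 (3.39), higher in SkM, and Fhl2 (-8.24), Csrp2 (-1.50) and Csrp1 (-0.71), lower, with a median of -0.71. Fhl2 was at a mean of 1302 CPM in LV and 2.80 CPM in SkM, the widest difference of that list. Under total counts these lists had 2 higher and 4 lower, and 2 higher and 3 lower, with medians of -0.89 and -1.36.

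Of 19 core Z-disc genes and partners, 13 were called higher in SkM and 3 lower (Nebl, Ankrd1 and Actn2), beside 29.8% and 31.5% of all genes, with a median of 1.19. The alpha-actinins that most members bind were divided between the muscles: Actn3, the form of fast fibres, was at 11.1 to 12.4 CPM in the 4 LV libraries and 11753 to 13212 CPM in SkM (log2 10.68, adjusted p = 4.05e-07), and Actn2 at 2425 to 2916 CPM in LV and 354 to 942 CPM in SkM (-1.43, adjusted p = 0.0032). WT LV replicate 2 had 2787 CPM of Actn3 and 2116 CPM of Actn2. Ttn, the titin gene, was at 5560 to 7959 CPM in the 4 LV libraries, 9344 CPM in WT LV replicate 2 and 13585 to 24205 CPM in SkM (2.10, adjusted p = 0.000311). Neb, for nebulin, was higher in SkM (9.38) and Nebl, its cardiac relative nebulette, lower (-7.96). Among the stretch-responsive ankyrin repeat genes, Ankrd2 differed by 7.65 and Ankrd1 by -6.86. Ankrd2 passed the filter through SkM alone and Nebl through LV alone, so both had to differ and their differences are descriptions. Under total counts 10 of the 19 were higher and 5 lower, with a median of 0.54.

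Of 10 genes of the calcineurin axis, the phosphatase that myozenins bind, 5 were called higher in SkM (Ppp3ca, Ppp3cb, Ppp3r1, Nfatc1 and Nfatc3) and 2 lower (Rcan2 and Nfatc4), beside 29.8% and 31.5% of all genes, with a median of 0.86. The catalytic subunit gene Ppp3cb differed by 2.63, the regulatory subunit gene Ppp3r1 by 1.89 and the calcineurin regulator Rcan2 by -2.62. Of 6 other named partners of telethonin 4 were called higher (Mstn, Trim54, Mdm2 and Trim63) and Kcne1 lower, with a median of 0.49. Mstn, for myostatin, was at a mean of 0.598 CPM in LV and 179 CPM in SkM (8.84). It passed the filter through SkM alone, so it had to differ, and its call and difference are descriptions. Trim54, a muscle ubiquitin ligase, differed by 0.74. Kcne1, a potassium channel subunit, was at 8.25 CPM in LV and 0.0133 CPM in SkM, where counts were too few for a fold, and it passed the filter through LV alone. Under total counts the calcineurin list had 5 higher and 5 lower (median 0.20) and the telethonin list 1 each way (median -0.16). Ankrd1, Csrp1, Pdlim1, Nfatc1, Nfatc3, Nfatc4 and Trim63 were named after their values were seen.

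Marker lists gave the tissues' other cells. By edgeR, 9 of 9 ventricle markers were called lower in SkM and 9 of 9 fast fibre markers higher, and of 6 slow fibre markers 2 were higher and 3 lower. All 5 adipose markers were higher in SkM, of which Lep passed the filter through SkM alone and so had to differ. Adipoq, at 0 in E0del/+ LV replicate 3, could not have passed it through LV alone. Neither could Tnni1 of the slow fibre list or Sln of the atrium list, so the calls in these lists are descriptions. All 4 endothelial and 5 fibroblast markers were lower in SkM. Adipose markers summed to 281, 147 and 1183 CPM in E0del/+ SkM replicates 1, 2 and 3 and to 1122 and 8.69 CPM in WT SkM replicates 1 and 2, with Cfd the most abundant, which is not the order of the slow fibre sum. In LV they summed to 23.7, 19.2 and 1.83 CPM in the E0del/+ mice, 8.45 CPM in WT replicate 1 and 279 CPM in WT replicate 2, with Lep at 0 in E0del/+ replicate 2 and Lep and Adipoq at 0 in E0del/+ replicate 3. Endothelial markers, led by Cdh5, summed to between 1085 and 1855 CPM in the 4 LV libraries and between 97.9 and 213 CPM in SkM. Fibroblast markers, led by Dcn or Col3a1, summed to between 837 and 1526 CPM and between 136 and 476 CPM. Of 3 atrium markers tested 1 was higher in SkM and 1 lower, and 0 of 1 blood and 0 of 3 sex markers were called, with Alas2 the most abundant blood marker and Hba-a1 and Hba-a2 at 0 in every library. Their part in the members' differences was not tested.

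Comparing E0del/+ with WT in LV asks whether the anchors' transcripts differ where 1 Ttn allele lacks E0. Without WT LV replicate 2, LV had 1 WT and 3 E0del/+ libraries, and the WT library is assumed to vary like the others. In that comparison edgeR called 0 of 13890 genes (0%), 104 (0.749%) had an unadjusted p under 0.05, and DESeq2 called 0. Without E0del/+ replicate 1, 2 or 3 edgeR called 4, 4 and 3 genes, and with a block for Xist 3, with 0 members among them in each case. Those genes were Ddx3y, Eif2s3y, Kdm5d and Uty, then Acta2, Col14a1, Csdc2 and Cyp26b1, then Cyp26b1, Lgals4 and Tfrc, and the last 3 again with the block, named after their values were seen. Myoz3 was removed by the filter, and of the 8 members tested 1, Pdlim3, had an unadjusted p under 0.05 (chosen after its values were seen). Pdlim3 was at 21.05 CPM in WT replicate 1 and at 32.2, 39.3 and 47.5 CPM in the E0del/+ mice, a log2 difference of 0.93 (95% interval 0.29 to 1.56, unadjusted p = 0.00871, adjusted p = 0.9998 by edgeR). WT LV replicate 2 had 108 CPM, and with it the sign turned to -0.80. The ratio of E0del/+ to WT was 1.53 in batch 1 and 0.364 in batch 2, where the labels' batch number equals the replicate number, and batch 3 held no WT mouse.

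The other members differed less in LV. The fitted log2 difference was 0.37 (SE 0.31) for Csrp3, 0.37 (SE 0.28) for Myoz2 and 0.31 (SE 0.50) for Myoz1. It was 0.24 for Tcap, 0.09 for Pdlim7, 0.00 for Pdlim5 and -0.06 for Ldb3. All 8 had an adjusted p of 0.9998. Csrp3 and Myoz2 were lowest in WT replicate 2, the mixed library, at 561 and 212 CPM. There the ventricle markers were lower too, at a median of 70.0% (59.5 to 82.5) of the other LV libraries. The members' median was 0.27 beside 0.00 over all genes. Of the marker lists by edgeR, 0 atrium, adipose or fibroblast genes were called in LV (DESeq2 called 0 genes). Atrium values were positive for 4 of 4 markers (median 1.504, with Myl7 and Myl4 at an unadjusted p under 0.05), with sums of 231, 594 and 437 CPM in the E0del/+ libraries, 222 CPM in WT replicate 1 and 202 CPM in WT replicate 2 (Nppa the most abundant, none at 0). Adipose values were positive for 4 of 4 markers tested (median 0.86), and fibroblast values negative for 4 of 5 (median -0.50, with Col3a1 at an unadjusted p under 0.05), with sums of 1180, 1526 and 837 CPM in the E0del/+ libraries, 1521 CPM in WT replicate 1 and 982 CPM in WT replicate 2 (Dcn or Col3a1 the most abundant, none at 0). The part of these cells in the members' differences was not tested, and Myl7, Myl4 and Col3a1 were named after their values were seen.

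With WT LV replicate 2 in the comparison, edgeR called 0 of 13420 genes and 564 (4.2%) had an unadjusted p under 0.05 (DESeq2 was not run with it). Among them were 3 members, Myoz1 (-7.15, unadjusted p = 0.00249), Myoz2 (0.53, 0.0294) and Csrp3 (0.54, 0.0350), named after their values were seen. Pdlim7 was then at -0.82. WT LV replicate 2 held 590 CPM of Myoz1 beside 37133 CPM of fast fibre markers. Its Myoz2, Csrp3 and ventricle markers were lower than in the other LV libraries. The part of carried-over SkM transcripts in these values was not tested. With batch as a replicate block over the 5 libraries, 5 genes were called (Ddx3y, Eif2s3y, Kdm5d, Uty and Mstn, 4 of them Y-linked), none of them a member. In that fit 585 genes, among them 2 members, had an unadjusted p under 0.05 by edgeR. Myoz1 was at -4.37, Pdlim3 at -0.56 and Pdlim7 at -0.68.

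In SkM the same question was asked with 2 WT and 3 E0del/+ libraries. By edgeR 0 of 13154 genes (0%) were called, 114 (0.867%) had an unadjusted p under 0.05, 0 of the 9 members among them, and DESeq2 called 0. The widest difference was that of Csrp3, at 38.9, 214 and 12.4 CPM in the E0del/+ libraries and 42.0 and 11.8 CPM in the WT libraries, a log2 of 1.83 with a 95% interval of -1.32 to 4.97. The groups overlapped, and without E0del/+ replicate 2 the value was -0.04. Within batches the ratio of E0del/+ to WT was 0.927 and 18.1. Myoz2 differed by 0.84 (SE 0.52), with ratios of 1.23 and 4.41 within batches. It was 1.503 without WT replicate 1 and 0.39 without WT replicate 2. The 6 slow fibre markers were positive in 6 of 6 cases (median 1.15) and the 9 ventricle markers in 8 of 9 (median 0.90), with 0 called in either list, and how far fibre composition made up the members' differences was not tested.

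Of the other members in SkM, Pdlim5 was at 0.34, Ldb3 and Pdlim3 at 0.12, Myoz3 at -0.14, Myoz1 at -0.16, Tcap at -0.20 and Pdlim7 at -0.29, all with an adjusted p of 0.9998. Leaving out 1 replicate at a time turned the sign of each of these except Pdlim5, as with -0.59 to 0.0885 for Pdlim7. In plain CPM Pdlim7 was at 279 to 291 in the 3 E0del/+ libraries and at 295 and 394 in the WT libraries. The TMM factor of WT SkM replicate 1 was 1.09, above the 1.05, 0.959 and 0.991 of E0del/+ replicates 1, 2 and 3. On that scale its Pdlim7 level, 295 CPM before scaling, was no longer above theirs. The members' median was 0.12 beside -0.01 over all genes. With batch as a replicate block 1 gene was called (Eif2s3y, Y-linked) and 596 (4.53%) had an unadjusted p under 0.05, among them Myoz2 (1.21, unadjusted p = 0.0202) and Pdlim5 (0.52, unadjusted p = 0.0370), while Csrp3 was at 2.01. E0del/+ replicate 3 has no WT partner in its batch and adds nothing to that value. Without WT SkM replicate 1, the library with both Xist and Y-linked transcripts, edgeR called 0 of 13510 genes with 1597 (11.8%) at an unadjusted p under 0.05 (DESeq2 was not run). In that fit, with 1 WT library that is assumed to vary like the others, Csrp3 was at 2.82 and Pdlim7, the 1 member with an unadjusted p under 0.05, at -0.59 (unadjusted p = 0.0107). With a block for Xist 0 genes were called by edgeR and 306 (2.33%) had an unadjusted p under 0.05, among them 1 member, Myoz2 (0.65, unadjusted p = 0.0311), and both were named after their values were seen.

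**Figure D5:**
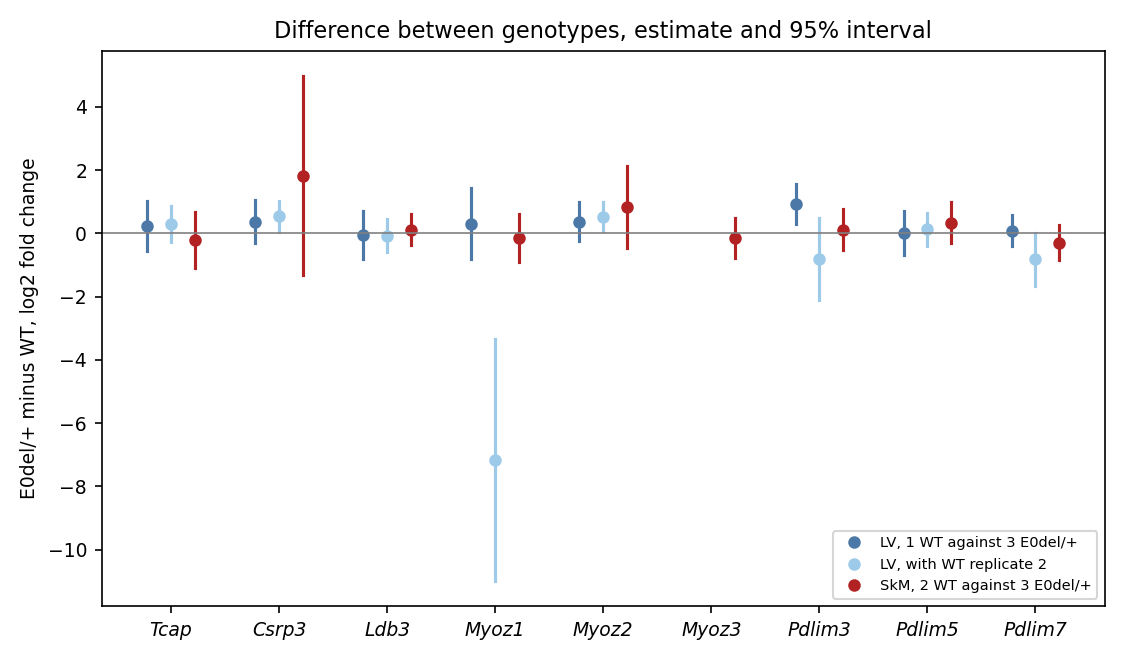
E0del/+ minus WT as the edgeR log2 fold change with its 95% interval for each gene in LV without and with WT LV replicate 2 and in SkM. Myoz3 has no LV value because it was removed by the filter, Myoz1 lies at -7.15 in LV with WT replicate 2, and the interval of Csrp3 in SkM is the widest of the SkM values.

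Whether the difference between tissues depended on the genotype was tested within mice, with 1 WT and 3 E0del/+ mice. By edgeR 0 of 14793 genes (0%) were called and 161 (1.09%) had an unadjusted p under 0.05, 0 of the 9 members among them. Without E0del/+ replicate 3 it called 77 genes, 0 of them members. In this comparison DESeq2 called 2 genes, Agtr1a and Ddx3y, named after their values were seen. The members' values were between -0.39 (Pdlim3) and 1.13 (Myoz3, with 15 LV counts behind it), and their median was 0.12 beside 0.06 over all genes. With both libraries of WT replicate 2 edgeR called 0 of 14327 genes, with 238 at an unadjusted p under 0.05 (DESeq2 was not run), and the value was 4.03 for Myoz1, 5.58 for Myoz3, 0.45 for Pdlim3, 0.46 for Csrp3, 0.26 for Myoz2 and -0.50 for Tcap. With WT replicate 2 kept apart, the comparison cannot be fitted without WT replicate 1. A p that misses the threshold with so few mice does not show that the genotypes were alike, and the intervals were wide, as with -1.41 to 1.65 for Tcap.

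Of the relatives' and partners' lists 0 genes were called between genotypes by edgeR or DESeq2, apart from Mstn in LV with the replicate block and WT replicate 2. At an unadjusted p under 0.05 there were Pdlim3 and Kcne1 (-0.69) in LV, 0 in SkM and Pdlim4 in the interaction, named after their values were seen. The median over the PDZ-LIM, LIM-only, core Z-disc, calcineurin and telethonin lists was 0.09, 0.07, 0.02, -0.04 and 0.01 in LV and 0.12, 0.04, 0.13, -0.05 and -0.04 in SkM, beside 0.00 and -0.01 over all genes. In the interaction the medians were -0.01, 0.33, 0.23, 0.38 and 0.36, beside 0.06 over all genes. The value was positive for 6 of 6 genes of the telethonin list, among them Kcne1, whose SkM counts were too few for a fold. Under total counts the medians in the interaction were -0.20, 0.12, 0.01, 0.17 and 0.15, beside -0.15 over all genes. Ankrd2 in LV and Nebl and Kcne1 in SkM were removed by the filter.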

How the data were processed

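The authors deposited raw counts and RPKM for 23337 genes in each library, with exon coordinates in mm10, from STAR alignments. The deposited RPKM equal the counts divided by summed exon length and library total, so no other scaling had been applied, and all tests started from the counts. Tests used edgeR 4.0.16 (quasi-likelihood, filterByExpr, TMM, Benjamini-Hochberg at 0.05) in R 4.3.3, with limma 3.58.1, and DESeq2 1.42.0 as the other tool. Mouse was a block for the tissues and the interaction. The code was tested on simulated data. Shares were compared by exact permutation of signs within mice.

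The members and lists were chosen with earlier results of these data known. The lists were PDZ-LIM genes, LIM-only relatives of Csrp3, core Z-disc genes and partners, the calcineurin axis, other partners of telethonin, and marker genes of fast and slow fibres, ventricle, atrium, endothelium, fibroblasts, adipose tissue, blood and sex. Named are all members, Ttn, Actn2, Actn3, up to 4 genes of each list with the largest called difference, each member's nearest gene (log2 of CPM + 0.5, mean CPM of at least 10) and the most abundant marker of each list.

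The labels' batch number equals the replicate number, which pairs the genotypes in batches 1 and 2. Across genes, deviations from group means of paired mice correlated at 0.0595 and -0.150 in LV and 0.550 and 0.336 in SkM, and those of the 2 tissues of a mouse at -0.101 to 0.0918. The LV deviations of WT mice include the mixed WT LV replicate 2. In each tissue the deviations of the 2 WT libraries mirror each other. Genes are not independent replicates.

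Alternatives were DESeq2 size factors, total counts, the DESeq2 Wald test, no filter, at least 10 counts in every library, WT replicate 2 included, the block removed or added, a block for Xist above 100 CPM, each replicate left out, shares with no length correction and, for nearest genes, TMM scaling.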

Additional observations from a re-analysis of the deposited data

Results flagged for a closer look

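Of 36 groups of 4 or 5 values examined by Dixon's criterion, 8 held a value far from the others, and 6 of these involved WT replicate 2. The groups share values and WT LV replicate 2 had been set apart beforehand, so these counts are a description with no test. In WT LV replicate 2, log2 CPM was 9.21 for Myoz1 and 6.75 for Myoz3, far above the other LV libraries. In the same mouse SkM minus LV on the TMM scale was 2.96 for Myoz1, 2.71 for Myoz3 and 2.65 for Pdlim7, below the other 4 mice, and Pdlim7 in WT SkM replicate 2 was high at a log2 CPM of 8.62. Among the 4 other LV libraries Ldb3 was low in E0del/+ LV replicate 2, at a log2 CPM of 10.58, and Myoz1 low in WT LV replicate 1, at 0.88, a value that rests on 24 counts.

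WT LV replicate 2, which the main comparisons do not use, held members of SkM above the level in the other LV libraries. With the mean of these taken off both levels, Myoz1 was at 27.2%, Myoz3 at 29.3%, Pdlim3 at 18.6% and Pdlim7 at 22.8% of the mean SkM level.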

How the results depend on the processing

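Of 746 values under an alternative, 679 kept their direction and their side of the threshold or stayed within the spread, 1 lost its call, 3 gained one, 34 turned in sign and 29 moved further. For the members' tissue differences 93 of 98 were kept, for LV 77 of 88, for SkM 100 of 108 and for the interaction 75 of 89. The cause was not tested for any that follow.

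Total counts gave Tcap -0.16 between tissues, Pdlim5 -0.0119 in LV, and Tcap -0.10, Myoz1 -0.0864 and Pdlim7 -0.13 in the interaction. With WT replicate 2, LV gave Myoz1 -7.15, Pdlim3 -0.80 and Pdlim7 -0.82, and the interaction Tcap -0.50, Csrp3 0.46, Myoz2 0.26 and Pdlim3 0.45, which turned in sign, and Myoz1 4.03 and Myoz3 5.58, far outside their other values. The replicate block over 5 LV libraries (genotypes paired by batch) gave 5 calls, Myoz1 -4.37, Pdlim3 -0.56 and Pdlim7 -0.68, and 1 call in SkM. With Xist as a block LV had 3 calls (Cyp26b1, Lgals4 and Tfrc, seen after the fact) and Pdlim5 at -0.10. With no block the interaction was 0.98 for Csrp3 and 0.11 for Myoz2, with no filter 0.00591 for Myoz2, and DESeq2 called 2 genes.

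Shares with no length correction were 0.601% (LV) and 84.2% (SkM) for Myoz1, 99.3% (LV) for Myoz2, and 0.0851% (LV) and 14.7% (SkM) for Myoz3. Per kb and with WT replicate 2, the LV shares of Myoz1, Myoz2 and Myoz3 were 14.0%, 85.0% and 0.965%.

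Leaving out 1 replicate at a time, LV gave 3 to 4 calls and the interaction 0 to 77, the latter without E0del/+ replicate 3, with 0 members among the 77. LV differences were -0.16 to 0.0757 for Ldb3 and -0.10 to 0.12 for Pdlim5. SkM differences were -0.57 to 0.30 for Tcap, -0.0431 to 2.82 for Csrp3, -0.00844 to 0.20 for Ldb3, -0.54 to 0.37 for Myoz1, 0.39 to 1.503 for Myoz2, 0.0839 to 0.65 for Pdlim5, -0.39 to 0.16 for Myoz3, -0.15 to 0.44 for Pdlim3 and -0.59 to 0.0885 for Pdlim7. Interaction values were -0.26 to 0.31 for Tcap, -1.10 to 0.98 for Csrp3 and -0.41 to 0.42 for Myoz2.

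With WT replicate 2 kept apart, LV and the interaction cannot be run without WT replicate 1, then their only WT mouse. A replicate block in LV without WT replicate 2 has no residual degrees of freedom. With 1 WT library in LV and 2 in SkM, small differences between genotypes could not be told from the spread between mice, and Myoz3 in LV rests on 15 counts.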
